A study of Mus musculus with 12 samples.

Results

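The tricarboxylic acid (TCA) cycle enzymes described here are 9 genes, Cs, Idh2, Idh3a, Ogdh, Dlst, Suclg1, Suclg2, Fh1 and Mdh2. They were taken by gene symbol from a table of 55367 distinct symbols, and each of the 9 matched 1 row. All 9 had at least 1 TPM (a transcript level per unit of length, scaled to a common total) in at least 6 libraries and were among the 11335 genes tested.

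The TCA cycle runs in the mitochondrial matrix, where it oxidises acetyl-CoA to carbon dioxide and passes the electrons to the respiratory chain. Citrate synthase, isocitrate dehydrogenase, the oxoglutarate dehydrogenase complex, succinyl-CoA ligase, succinate dehydrogenase, fumarase and malate dehydrogenase are among its enzymes, named here in the order in which they act. In liver the cycle also supplies carbon for glucose, fatty acid and amino acid synthesis.

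RNA-seq libraries came from livers of Balb/c mice, wild type and 6 weeks of age, with 6 control libraries (control 3 to 8) and 6 from severe acute pancreatitis (SAP 10 to 15). The SAP mice had received caerulein, a peptide that acts like cholecystokinin and drives the pancreas to over-secrete. No transgene or deletion is named for either group, and the comparison asks how the hepatic transcriptome differs in SAP. Although the design text speaks of more than 1 mouse model, the labels name 1 strain and 1 treatment, and the sources used here give no dose, time after treatment or pooling. They do not state either that each library is a separate animal, and the p-values then cover only the spread among the libraries.

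Some facts of the libraries bear on the members' levels. Acute-phase genes are 25 secreted-protein and related genes such as the serum amyloid A and orosomucoid genes. They took 2.46 ± 0.140% of all TPM in the 6 controls, as mean ± SD, against 24.9 ± 5.03% in the 6 SAP libraries. Since TPM has a common total, the other genes as a set took a smaller share in SAP. Not every one of those genes was lower, and the median log2 difference, SAP minus control, over all genes tested was -0.03. In 5 libraries (control 5 and SAP 11, 13, 14 and 15) the nuclear RNA Xist was below 30 TPM, with a highest value of 17.1, while the other 7 lay between 49.1 and 60.7 TPM. Of the 9 hepatocyte markers listed, 8 matched a symbol, and they summed to 105076 to 118565 TPM in controls and 47381 to 65140 TPM in SAP, with 5 lower and 1 higher. For this and the next counts, 25.0% of all genes tested were lower and 19.5% higher. Neutrophil markers, 3 of 4 tested members higher and 0 of the 12 listed at 0 in every library, summed to 5.32 to 21.3 TPM in controls and 37.0 to 112.6 TPM in SAP. Most of the SAP sum came from S100a8 (mean 25.8 TPM) and S100a9 (46.8 TPM). Retnlg, at most 0.9 TPM in controls and 1.15 to 4.51 TPM in SAP, was tested only through its SAP values. Untested neutrophil markers were at most 1.65 TPM, with lower means in SAP for Camp and Ltf and higher ones for the others. Monocyte and macrophage markers, 3 of 5 tested members higher and 1 lower, summed to 46.6 to 69.4 and 65.5 to 107 TPM. The lower one, Lyz2, went from a mean of 38.3 to 27.7 TPM, and Plac8, a higher one, from 10.7 to 38.7 TPM. Among the higher ones Itgam, at most 0.52 TPM in controls and 2.49 to 5.49 TPM in SAP, was also tested only through its SAP values. Fcgr1, at 0.75 to 1.15 TPM in controls and 2.17 to 3.9 TPM in SAP, passed the filter only with SAP values counted. Kupffer cell markers, 3 of 7 tested members lower and 1 higher, summed to 115 to 184 TPM in controls and 105 to 244 TPM in SAP. The higher one, Marco, at 0.43 to 1.52 TPM in controls and 34.1 to 76.6 TPM in SAP, also passed the filter only with SAP values counted. The part of these cells in the members' differences was not tested. In bulk tissue fewer cells of a type and less RNA per cell cannot be told apart.

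The members lie apart from each other in the genome, on 8 chromosomes. In GENCODE M21 on GRCm38 all 9 are protein-coding genes. On the plus strand are Mdh2 (chromosome 5, 135778480 to 135790398), Suclg1 (chromosome 6, 73248382 to 73276911), Idh3a (chromosome 9, 54586334 to 54604661), Cs (chromosome 10, 128337734 to 128362479), Ogdh (chromosome 11, 6291633 to 6356642) and Dlst (chromosome 12, 85110833 to 85134845). On the minus strand are Fh1 (chromosome 1, 175600374 to 175625635), Suclg2 (chromosome 6, 95473009 to 95718800) and Idh2 (chromosome 7, 80094846 to 80115392).

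Among the members with a promoter window, only Ogdh and Dlst held a motif searched for here, and their sequence is shown. RefSeq windows on GRCm38.p6, each from 250 bases before to 50 after an annotated start, matched 8 of the 9 genes with 13 windows. Both strands were searched for 3 motifs of factors tied to mitochondrial genes: TGCGCATGC for NRF1, TCAAGGTCA for the estrogen-related receptor alpha and CCGGAAGT for GABPA. The NRF1 letters stood in 2 overlapping Ogdh windows, at the same bases of the genome and at positions -16 to -8 from the start of the window shown (found in 1.52% of all 32851 windows). The GABPA letters stood, as their reverse complement, at bases 1 to 8 of the annotated Dlst transcript (3.89% of all windows). The receptor's letters were in 0 of the 13 windows (0.423% of all windows), and no match overlapped that of another motif. A match is a string of letters, not a measured binding site. Both stretches are given 5′ to 3′ on the plus strand, with the matched letters in capitals, for Ogdh at chr11:6292458-6292557 and for Dlst at chr12:85110733-85110842.

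Ogdh: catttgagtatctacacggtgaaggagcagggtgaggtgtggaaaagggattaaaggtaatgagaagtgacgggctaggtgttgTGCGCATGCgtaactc

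Dlst: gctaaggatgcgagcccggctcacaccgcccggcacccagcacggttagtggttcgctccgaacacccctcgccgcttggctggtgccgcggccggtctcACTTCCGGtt

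Of the 9 members, 7 were lower in SAP and 0 higher (limma adjusted p under 0.05 over all genes tested), and 2, Ogdh and Idh3a, did not pass. Among all 11335 genes tested, 25.0% were lower and 19.5% higher. With a filter at a mean of 5 TPM the same 7 members were lower, beside 31.6% lower and 21.2% higher of 7442 genes. The members' median log2 difference, SAP minus control on the log2(TPM + 1) scale, was -0.50, against -0.03 over all genes tested. For the same 7 genes every SAP value lay below every control value, a pattern held by 15.1% of all genes tested.

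Citrate synthase, the enzyme that joins acetyl-CoA to oxaloacetate and opens the cycle, was among the members furthest below control, close to Dlst. Cs ranged from 57.0 to 62.2 TPM in controls (median 58.0) and from 25.8 to 39.1 TPM in SAP (median 30.4). The groups did not overlap, with SAP 12 the highest and SAP 14 the lowest of the SAP libraries. Cs averaged 58.8 ± 2.24 TPM (SD, n = 6) in controls against 31.5 ± 4.49 TPM (SD, n = 6) in SAP, a log2 difference of -0.89 ± 0.08 (SE; limma adjusted p = 2.66e-06). The gap between Cs and Dlst was smaller than either SE, and Dlst was the further below without control 5, without SAP 11 and in the libraries over 30 TPM of Xist.

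Dlst encodes the succinyltransferase core of the oxoglutarate dehydrogenase complex, which turns oxoglutarate into succinyl-CoA. Its level was 98.7 to 120 TPM in controls (median 109) and 47.5 to 70.5 TPM in SAP (median 61.4), again lowest in SAP 14 and highest in SAP 12. SAP livers kept 54.6% of the control mean (log2 difference -0.87 ± 0.09, SE; limma adjusted p = 7.95e-06).

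The NADP-dependent mitochondrial isocitrate dehydrogenase, encoded by Idh2, is a source of matrix NADPH and works beside the NAD-dependent enzyme of the cycle. Idh2 was 132 to 151 TPM in controls (median 141) and 75.8 to 99.7 TPM in SAP (median 83.6), with no overlap. The SAP mean was 59.9% of the control mean (log2 difference -0.73 ± 0.07, SE; limma adjusted p = 2.26e-06).

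Fumarase (Fh1) and malate dehydrogenase (Mdh2) close the cycle from fumarate through malate to oxaloacetate. Fh1 was 202 to 266 TPM in controls (median 218) and 126 to 191 TPM in SAP (median 143). Its highest SAP library was SAP 13 at 190.66 TPM, still below the lowest control. The log2 difference was -0.61 ± 0.10 (SE; limma adjusted p = 2.52e-04). Mdh2, which also serves the malate-aspartate shuttle, was 219 to 259 TPM in controls (median 233) and 149 to 181 TPM in SAP (median 162). Its SAP mean was 70.6% of the control mean (log2 difference -0.50 ± 0.07, SE; limma adjusted p = 4.66e-05).

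Succinyl-CoA ligase makes a nucleoside triphosphate directly in the cycle. Suclg1 encodes its shared alpha subunit and Suclg2 the beta subunit of the GTP-forming enzyme. Suclg1 was 226 to 244 TPM in controls (median 235) and 154 to 186 TPM in SAP (median 172), a log2 difference of -0.47 ± 0.06 (SE; limma adjusted p = 2.58e-05). Suclg2 was 130.3 to 144 TPM in controls (median 140.1) and 91.9 to 121 TPM in SAP (median 115), with SAP 14 and SAP 10 lowest. It had the smallest fall of the 7 (log2 difference -0.35 ± 0.08, SE; limma adjusted p = 0.00247). Neither subunit's groups overlapped.

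Ogdh and Idh3a overlapped between the groups. Ogdh, the oxoglutarate-decarboxylating subunit of the complex that Dlst also belongs to, was 47.7 to 54.6 TPM in controls (median 51.3) and 41.7 to 50.02 TPM in SAP (median 46.4). Its log2 difference of -0.15 ± 0.06 (SE) did not pass (limma adjusted p = 0.0634). Without control 5 or without SAP 12 it did (limma adjusted p = 0.0469 and 0.0419). Idh3a, the catalytic subunit of the NAD-dependent isocitrate dehydrogenase, was 13.2 to 20.3 TPM in controls (median 15.2) and 11.7 to 15.9 TPM in SAP (median 14.3), with a log2 difference of -0.15 ± 0.11 (SE; limma adjusted p = 0.284). At both genes SAP 14 was the lowest of the 12 libraries.

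**Figure D1:**
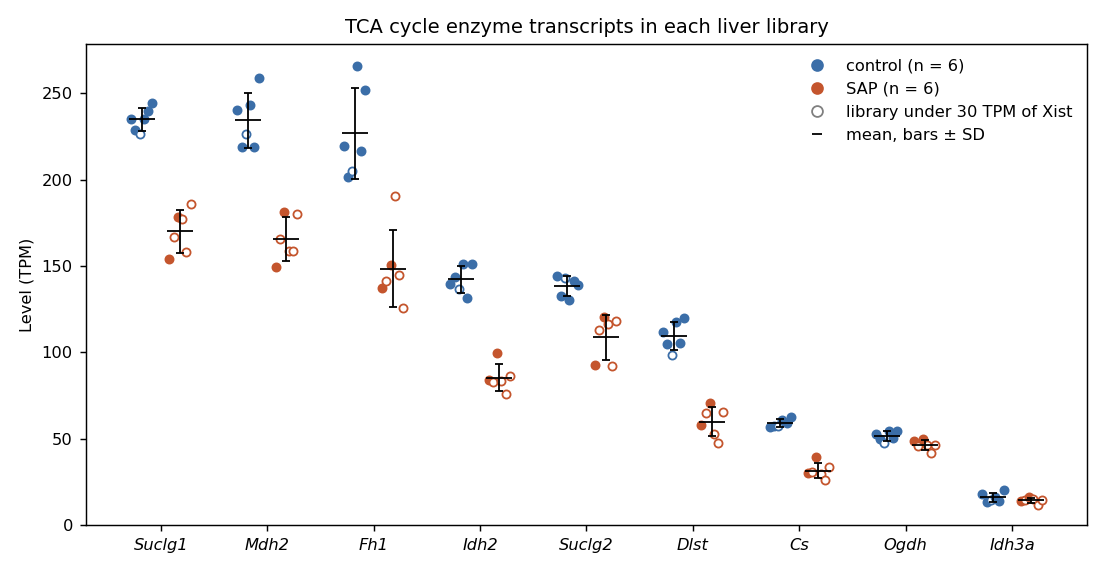
Level in TPM (vertical axis) of the 9 members in each control (blue) and SAP (orange) library, in order of the control mean, with open circles for libraries under 30 TPM of Xist and black lines for the mean ± SD of 6 libraries. For 7 genes the SAP points lie below all control points, while Ogdh and Idh3a overlap.

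The order of the members' levels was similar in both groups. In controls Suclg1, Mdh2 and Fh1 led at mean levels of 235, 234 and 227 TPM, and neighbours among these 3 overlapped in range, with Suclg1 above Mdh2 in 2 of 6 libraries. Next came Idh2 and Suclg2 at 142 and 138 TPM, with Idh2 above Suclg2 in 3 of 6 controls, then Dlst, Cs, Ogdh and Idh3a, each below the whole range of the gene before it. In SAP the same 3 led at 170, 166 and 148 TPM, again overlapping, with Suclg1 above Mdh2 in 4 of 6 libraries. Idh2 was above Suclg2 in 0 of 6 SAP libraries. Cs, above Ogdh in 6 of 6 controls, was above it in 0 of 6 SAP libraries. These last pairs were singled out after their values were seen.

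Summed over the 9 genes, the level was 1150 to 1301 TPM in controls and 756 to 906 TPM in SAP, 68.5% of the control mean. SAP 14 had the highest acute-phase share of TPM, 33.6%, and the lowest level among SAP libraries at 6 of the 9 members. That library also had the lowest Xist (4.59 TPM), the fewest genes at 1 TPM (10802) and the lowest share of mitochondrially encoded transcripts (4.56%). Which of these goes with its low levels was not tested. SAP 12 had the lowest acute-phase share among SAP libraries, 19.5%, and the highest level at 7 of 9. As a share of the TPM outside the acute-phase genes, the 9 members took 0.125 ± 0.00642% (SD, n = 6) in controls against 0.111 ± 0.00397% (SD, n = 6) in SAP, 89.0% of the control mean, with ranges of 0.119 to 0.134% and 0.105 to 0.116%. On this measure SAP 14, at 0.114%, was not the lowest of the SAP libraries.

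The number of members past the threshold depended on how libraries were scaled. With factors like those of the trimmed mean of M-values (TMM), 7 members were lower and 0 higher (24.2% and 24.4% of all genes), the same 7 as without scaling. With quantile normalization 3 were lower, Cs (-0.71), Dlst (-0.61) and Idh2 (-0.44), and 0 higher (22.9% and 26.0% of all genes). When each TPM value was divided by the share of TPM outside the acute-phase genes, an alternative chosen after seeing the data, Cs (-0.52), Dlst (-0.50) and Idh2 (-0.36) were lower and Ogdh (0.23) was higher (11.4% and 52.5% of all genes). That division raised the median log2 difference of all genes tested by 0.32, to 0.30. Relative to the median of all genes on that scale, Ogdh stood at -0.07, Idh3a at -0.08, Suclg2 at -0.27 and Cs at -0.82. Cs, Dlst and Idh2 were lower under each of these 4 scalings, and the direction of Ogdh changed between them. Idh3a (0.21) and Suclg2 (0.024) also turned above 0 outside the acute-phase genes, without passing the threshold.

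**Figure D2:**
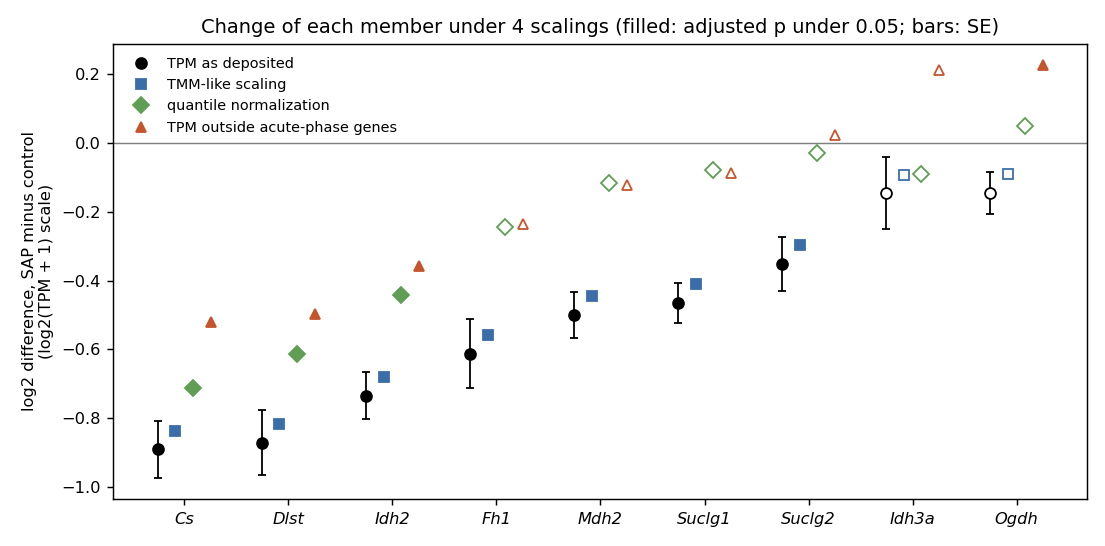
Log2 difference, SAP minus control (vertical axis), of each member under 4 scalings, with filled symbols for adjusted p under 0.05 and SE bars on the values from TPM as deposited. Cs, Dlst and Idh2 are filled and below 0 throughout, while Ogdh goes from -0.15 to 0.23. Idh3a and Suclg2 are also above 0 outside the acute-phase genes, with open symbols.

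The members' calls were the same with the Xist split taken into account. With the split as a term the same 7 members were lower (19.4% of all genes). They were also lower in the 7 libraries over 30 TPM of Xist, 5 control and 2 SAP (16.1% of all genes), where Cs stood at -0.77 and Suclg2 at -0.38 (limma adjusted p = 0.00132 and 0.0264).

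Ratios between 2 transcripts of the same library do not change with any single scaling factor of that library, so 10 ratios of members and their partners were compared. Of these, 7 passed an exact two-sided permutation test with Benjamini-Hochberg adjustment over the 10, 5 higher and 2 lower in SAP, and 5 had groups that did not overlap. With 6 against 6 libraries the permutation p cannot go below 0.00216, which becomes an adjusted p of 0.00433.

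The largest shift was within the oxoglutarate dehydrogenase complex. Ogdh/Dlst was 0.454 to 0.483 in controls (median 0.472) and 0.704 to 0.877 in SAP (median 0.775), so every SAP library had more Ogdh per Dlst transcript than any control. The ratio rose 1.66-fold (log2 0.73; exact permutation test, adjusted p = 0.00433). SAP libraries fell into a higher set, SAP 10, 13 and 14 at 0.838 to 0.877, and a lower set, SAP 11, 12 and 15 at 0.704 to 0.711. The third component, the dihydrolipoamide dehydrogenase Dld, which other dehydrogenase complexes share, averaged 63.7 ± 3.48 TPM (SD, n = 6) in controls against 58.9 ± 3.96 TPM (SD, n = 6) in SAP. Its log2 difference of -0.11 did not pass (limma adjusted p = 0.155), and it was 0.11 with quantile normalization and 0.26 outside the acute-phase genes.

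A similar shift stood within the NAD-dependent isocitrate dehydrogenase, where Idh3b and Idh3g encode the subunits that accompany the catalytic one. Idh3b fell from 174 ± 4.67 to 99.2 ± 11.6 TPM (SD, n = 6 each) and Idh3g from 77.4 ± 2.67 to 52.6 ± 4.39 TPM. Idh3a/Idh3b went from 0.0765 to 0.116 in controls (median 0.0882) to 0.130 to 0.153 in SAP (median 0.143), 1.58-fold higher with no overlap (exact permutation test, adjusted p = 0.00433). Idh3a/Idh3g was 1.33-fold higher, with overlapping groups (exact permutation test, adjusted p = 0.00618). Idh2/Idh3a fell from a control median of 9.35 to 6.01 in SAP (log2 -0.59; exact permutation test, adjusted p = 0.00433).

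Other ratios compared citrate synthase, malate dehydrogenase and the succinyl-CoA ligase subunits. Cs/Mdh2 was 0.237 to 0.270 in controls and 0.163 to 0.216 in SAP (log2 -0.41; exact permutation test, adjusted p = 0.00433). Mdh2/Mdh1, the mitochondrial over the cytosolic enzyme, was 0.438 to 0.490 in controls and 0.584 to 0.664 in SAP (log2 0.41; exact permutation test, adjusted p = 0.00433). Suclg2/Sucla2 compares the beta subunits of the GTP-forming and ATP-forming ligases, and it was 1.16-fold higher in SAP, from 1.31 ± 0.0578 to 1.51 ± 0.0952 (mean ± SD of 6 libraries; exact permutation test, adjusted p = 0.00618). Suclg2/Suclg1 (log2 0.11), Idh2/Idh1 (0.12) and Fh1/Mdh2 (-0.11) did not pass (exact permutation tests, adjusted p = 0.0514, 0.106 and 0.351). Leaving out 1 library brought each of these below the threshold: control 3, control 5, SAP 10 or SAP 14 for Suclg2/Suclg1, with adjusted p from exact permutation tests of 0.0487, 0.0325, 0.0379 and 0.0216, SAP 15 for Idh2/Idh1 (0.0487) and SAP 13 for Fh1/Mdh2 (0.0379).

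**Figure D3:**
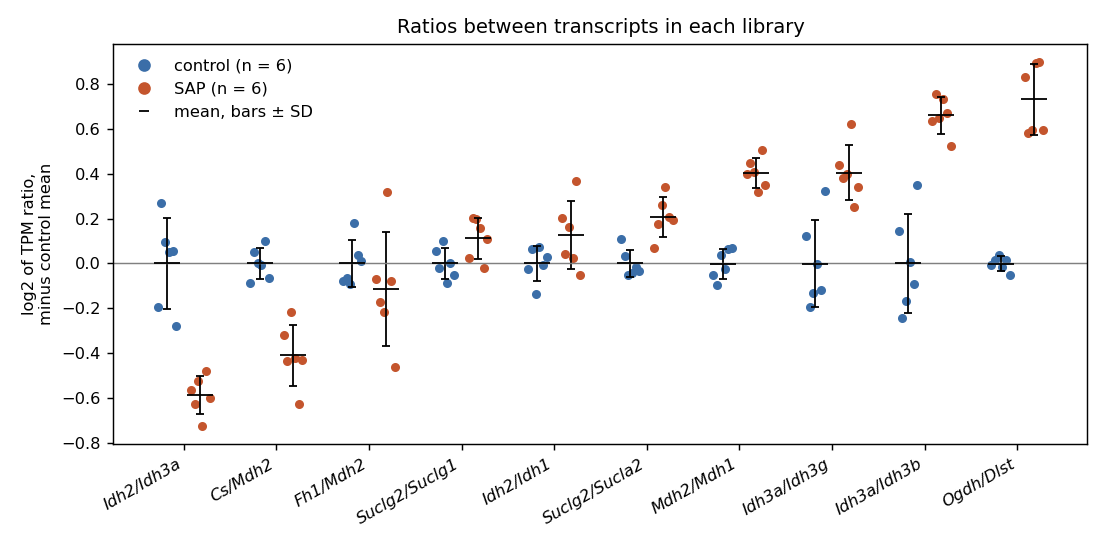
Log2 of the TPM ratio of 2 genes in each library, minus the control mean (vertical axis), for 10 ratios, with control points in blue, SAP points in orange and black lines for the mean ± SD of 6 libraries. Ogdh/Dlst and Idh3a/Idh3b are furthest up and Idh2/Idh3a furthest down, each without overlap between groups.

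Most of the other genes listed for the cycle were lower too. The counts in this and the following lists stand beside 25.0% lower and 19.5% higher over all genes tested. Outside the acute-phase genes those shares were 11.4% and 52.5%. Of 8 listed and tested, 7 were lower, 0 higher and 1, Dld, did not pass, with a median log2 difference of -0.65. Over all 17 cycle genes listed 14 were lower. Succinate dehydrogenase, the cycle enzyme that is also respiratory complex II, had the largest difference of the 17 in its iron-sulfur subunit gene Sdhb. Sdhb was 320 ± 15.0 TPM (SD, n = 6) in controls against 141 ± 14.8 TPM (SD, n = 6) in SAP, a log2 difference of -1.18 ± 0.07 (SE; limma adjusted p = 7.46e-08). Its flavoprotein subunit Sdha fell by 0.73 and the membrane anchors Sdhc and Sdhd by 0.53 and 0.94 on the log2 scale. On the same scale Sucla2 fell by 0.56. The 7 genes were also lower with quantile normalization and outside the acute-phase genes. Dld passed as higher outside the acute-phase genes and did not pass with quantile normalization.

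The list of cytosolic counterparts fell in 5 of 5 genes, with a median log2 difference of -0.91. It holds Aco1, Idh1 and Mdh1 (-0.82, -0.86 and -0.91) and also Acly and Me1, which are not versions of a cycle enzyme (-1.81 and -1.48). Mdh1, the cytosolic malate dehydrogenase, went from 501 ± 35.4 to 268 ± 25.8 TPM (SD, n = 6 each) and Idh1, the cytosolic NADP-dependent isocitrate dehydrogenase, from 332 ± 15.6 to 184 ± 26.9 TPM. Acly, which splits exported citrate, went from 149 ± 39.5 to 40.8 ± 4.49 TPM.

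Genes for pyruvate entry carry carbon from glycolysis to the cycle. Of 14 listed, 12 were tested, 8 were lower, 0 higher and 4 did not pass (median log2 difference -0.45). Outside the acute-phase genes 5 were lower and 3 higher (11.4% and 52.5% of all genes). With quantile normalization 2 of the tested genes were higher (26.0% of all genes). The 2 untested, Pdk3 and Pdp1, reached at most 1.38 TPM in any library. With no filter both were higher in SAP, Pdk3 from a mean of 0.42 to 1.19 TPM and Pdp1 from 0.405 to 0.868 TPM. Pdhb, a subunit of the pyruvate-decarboxylating component of pyruvate dehydrogenase, fell from 184 ± 21.2 to 78.9 ± 10.1 TPM (SD, n = 6 each). Dlat, the acetyltransferase core of that complex, fell from 25.5 ± 1.71 to 12.6 ± 1.03 TPM, and Pdk1, a kinase that inhibits it, from 15.8 ± 3.25 to 5.54 ± 1.01 TPM. The log2 differences were -1.21, -0.96 and -1.35.

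Among genes of carbon entry, exit and carriers, 13 of 15 were tested, with 10 lower, 2 higher and 1 not past the threshold (median log2 difference -0.57). Outside the acute-phase genes 6 were lower and 3 higher (11.4% and 52.5% of all genes), and a filter at a mean of 5 TPM left 0 higher. Got1, the cytosolic aspartate aminotransferase of the malate-aspartate shuttle, went from 238 ± 62.6 to 49.6 ± 22.0 TPM, Gls2, the liver glutaminase, from 235 ± 31.1 to 60.3 ± 15.1 TPM and Pck1, which draws oxaloacetate into gluconeogenesis, from 1464 ± 255 to 483 ± 127 TPM (SD, n = 6 each). The 2 higher genes were Pck2, the mitochondrial counterpart of Pck1, and Me2, a mitochondrial malic enzyme. Both were at low levels, 1.03 ± 0.364 and 1.09 ± 0.172 TPM in controls against 2.22 ± 0.745 and 2.09 ± 0.716 TPM in SAP. Their lowest controls were at 0.59 and 0.91 TPM, so both reached 1 TPM in 6 libraries only with SAP values counted. Their calls as higher are therefore not independent of the filter. With no filter 2 genes of this list were higher (8.85% of all genes).

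Regulators and cofactor supply had 12 of 13 entries in the table and tested, 8 lower, 0 higher and 4 not past the threshold (median log2 difference -0.46). Outside the acute-phase genes 5 were lower and 1 higher (11.4% and 52.5% of all genes). Ppargc1a and Ppargc1b, coactivators of mitochondrial genes, went from 3.87 ± 1.16 to 1.20 ± 0.380 TPM and from 1.40 ± 0.161 to 0.290 ± 0.321 TPM (SD, n = 6 each). Ppargc1b was at most 0.93 TPM in SAP, so it was tested only because its controls lay at 1.14 to 1.54 TPM. Its call as lower is therefore not independent of the filter. Sirt5, a mitochondrial desuccinylase, fell by 0.77 and Esrra, the estrogen-related receptor alpha, by 0.70 on the log2 scale. The genes of the other factors whose motifs were searched, Nrf1 and Gabpa, stood at -0.06 and -0.18. Neither passed (limma adjusted p = 0.729 and 0.0591). The entry outside the table is Kgd4, a newer name of Mrps36, which is listed under that name.

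The mitochondrial genome itself encodes 13 proteins of the respiratory chain and ATP synthase. Of their genes 2 were lower, 0 higher and 11 did not pass (median log2 difference -0.20). Both counts are below the shares over all genes tested, 25.0% lower and 19.5% higher. The 2 were mt-Co1 (-0.45 ± 0.10, SE; limma adjusted p = 0.00228) and mt-Nd4l (-0.51 ± 0.16; 0.0211), and mt-Nd1 was at -0.27 (limma adjusted p = 0.0534). With quantile normalization 6 were lower (22.9% of all genes) and without control 3 there were 4 (22.4% of all genes). In the libraries over 30 TPM of Xist 1 was lower (16.1% of all genes) and with no filter 0 (11.0%). Outside the acute-phase genes 0 were lower and 3 higher (11.4% and 52.5% of all genes). With no filter neither mt-Co1 nor mt-Nd4l passed, mt-Co1 did not pass in the libraries over 30 TPM of Xist, and mt-Nd4l did not pass with the Xist split as a term.

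**Figure D4:**
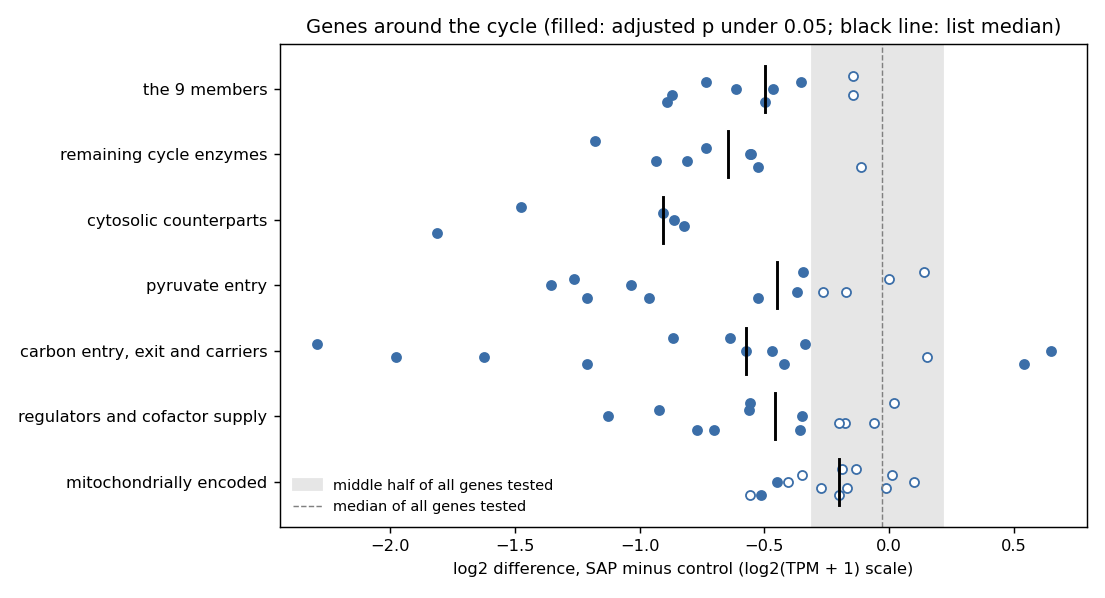
Log2 difference, SAP minus control (horizontal axis), of each tested gene in 7 lists, with filled points for adjusted p under 0.05, a black line for each list's median, and grey shading from -0.31 to 0.21 for the middle quartiles of all genes tested. The 9 members have a median of -0.50, and the median furthest to the left is that of the cytosolic counterparts, -0.91. The single gene furthest to the left, at -2.29, is among carbon entry, exit and carriers.

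The pattern of the 9 members over the 12 libraries was most like that of Mfn2, a mitochondrial fusion protein gene. Likeness was the Pearson r between log2(TPM + 1) of a gene and the members' mean z-score, over the 7365 other genes that were tested and had a mean of at least 5 TPM. It was 0.987 for Mfn2, 0.983 for Emc9 and 0.982 each for the sulfate transporter gene Slc26a1, the aminoacylase gene Acy1 and the syndecan gene Sdc1. Mfn2 went from 38.8 ± 2.39 to 20.9 ± 3.97 TPM (SD, n = 6 each). The 12 points share the group difference and the library total. With group means removed r was 0.938 for Mfn2, 0.898 for Emc9, 0.94 for Slc26a1, 0.915 for Acy1 and 0.901 for Sdc1. These genes were picked by r over the same 12 libraries, so the second r is not independent of that choice. It was not computed for the other candidate genes.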

How the data were processed

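The deposited table pairs gene symbols with 12 library columns in 55487 rows. The deposited values were taken to be TPM, a unit that neither header nor labels state, because every column sums to between 993412 and 995793 with 2 decimals and no common step. The submitters' processing notes name edgeR without a role or version. Aligner, build, annotation, strand and the assignment of shared reads were not given in the sources used here. Depth is unknown, since TPM does not hold it. All 12 columns were used.

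The 11335 genes that reached 1 TPM in 6 or more libraries were tested with limma 3.58.1 in R 4.3.3, with trend, on log2(TPM + 1), group as the only term, two-sided, with Benjamini-Hochberg adjustment over all genes at 0.05. Where a symbol repeated (234 rows, no member among them), its row of highest median was used. Ratios were tested by exact permutation in scipy 1.17.1. Both were tested on simulated data. Figures used matplotlib 3.10.9.

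Named genes were the 9 members, the 3 tested genes with the smallest adjusted p in each list, and the 5 genes most like the members. Further genes were Dld, Idh3g, Sucla2, Sdhc, Sdhd, Pck2, Me2, Esrra, Nrf1, Gabpa, Aco1, Me1, Pdk3, Pdp1 and the cell type markers named. They were added because a ratio or motif uses them or after their values were seen. The members and lists were chosen with earlier results of these data known, and 1 result is not reported here.

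Alternatives were quantile and TMM-like scaling (trimming 30% of ratios and 5% of levels at each end), filtering by a mean of 5 TPM or not at all, no trend, robust empirical Bayes, a pseudocount of 0.1, the Xist split, the highest mean for repeated symbols, leaving out libraries and, added later, TPM outside acute-phase genes.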

Additional observations from a re-analysis of the deposited data

How the results depend on the processing

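The 7 lower and 0 higher members held under TMM-like scaling, filtering by a mean of 5 TPM or not at all, no trend, robust empirical Bayes, a pseudocount of 0.1, the Xist settings, the highest mean for repeated symbols and without SAP 14 and control 5. Quantile normalization left 3 lower, and TPM outside acute-phase genes 3 lower and 1 higher. Leaving out single libraries gave 7 to 8 lower. Suclg1, Fh1 and Mdh2 no longer passed with quantile normalization (-0.078, -0.24 and -0.12) or outside acute-phase genes (-0.088, -0.24 and -0.12), nor did Suclg2 (-0.029 and, turned, 0.024). Ogdh turned to 0.050 with quantile normalization and to 0.23 outside acute-phase genes, where Idh3a turned to 0.21, Dld stood at 0.26 (0.11 with quantile normalization) and mt-Nd1 at 0.11. These turns follow the acute-phase share of TPM by construction outside acute-phase genes, and with quantile normalization the cause was not tested. Ogdh ranged from -0.17 to -0.12 over single libraries left out.

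Over the pathway lists 40 genes were lower (40 to 42 with 1 library left out) and 2 higher. The lower count was 42 with quantile normalization, 34 in the libraries over 30 TPM of Xist and 28 outside acute-phase genes. The higher count was 4 with quantile normalization, 4 with no filter, 0 with a mean of at least 5 TPM, where fewer genes are tested, and 11 outside acute-phase genes. In that last setting 52.5% of all genes were higher. Among ratios, log2 Suclg2/Suclg1 (0.10 to 0.14), Fh1/Mdh2 (-0.20 to -0.044) and Idh2/Idh1 (0.076 to 0.16) crossed the threshold with some library left out, as did Suclg2/Suclg1 without SAP 14 and control 5 (0.16). Cs/Mdh2 was -0.27 in the libraries over 30 TPM of Xist, with no test. The members' summed level was 68.5% of control (67.2 to 69.7% with 1 library left out) and 89.0% outside acute-phase genes. No paired analysis was possible because the groups share no sample numbers. DESeq2 was not run, since the values are not counts, and unknown depth leaves counting error unmeasured.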

Other observations

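The Fh1/Mdh2 ratio spread more widely in SAP than in controls, a difference that was not tested. It was 1.20 in SAP 13 and 0.699 in SAP 15, against 0.829 to 0.919 in the other 4 SAP libraries and 0.906 to 1.09 in controls. With group means removed, r between Fh1 and another member over the 12 libraries of both groups went from -0.017 (Dlst) and 0.0481 (Cs) to 0.363 (Ogdh) and 0.5 (Idh3a), while the median over all 36 pairs of members was 0.568. These r values are descriptions, and the libraries share their totals.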
